A study of Hevea brasiliensis with 2 samples.

Results

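Of the 51192 unigenes (assembled transcript pieces) of rubber tree latex, 40 were glycosyltransferase unigenes as defined here. They were chosen by name and by a measured difference: names are given only in the authors' table of 6726 unigenes called different between the clones PR107 and CATAS8-79. In that table, 48 unigenes had a best hit in Nr or Swissprot that names a glucosyltransferase, glycosyltransferase, glycosyl transferase, galactosyltransferase or glucuronosyltransferase. The 8 of these that also name cellulose, xyloglucan, sucrose or a cytokinin were left out. Every member thus differed between the clones by the way it was picked, so its difference is described here and not tested. The glycosyltransferase unigenes that did not differ have no name in the files and were not analysed here.

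The PR107 sample and the CATAS8-79 sample (RY8-79 in the sample labels) were latex of untreated trees that had not been tapped before. The labels give an age of 3 years, while the study's methods give older trees. Latex is the cytoplasm of the laticifers, the cells that make rubber, and for each clone it was pooled from several trees at the first tapping and sequenced as 1 library. CATAS8-79 has PR107 among its ancestors. Each clone is 1 genotype with 1 library, so no value has a replicate. Each library held 6.9e+06 reads on unigenes, of which the members took 0.102% in PR107 and 0.0732% in CATAS8-79. Among the named unigenes, the latex words used for this check found a small rubber particle protein, with 274 reads in PR107 and 51 in CATAS8-79, and a patatin-like protein, with 192 reads in PR107 and 417 in CATAS8-79. The words rubber elongation factor, hevein, cis-prenyltransferase and major latex were in no hit of the called unigenes, and unigenes that were not called have no names to search. Of 17 photosynthesis unigenes, markers of green cells, 8 were higher in PR107 and 9 in CATAS8-79, with 8017 reads together in PR107 and 15336 in CATAS8-79. Except for Unigene12717, those higher in CATAS8-79 were all named after P700 apoproteins of photosystem I, such as Unigene1182 (1257 reads in PR107 and 3245 in CATAS8-79). Those higher in PR107 included Unigene43787, a Rubisco small chain (256 reads in PR107 and 71 in CATAS8-79). The sum thus gives no single direction for green cells, and their part in the results was not tested.

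Glycosyltransferases move a sugar from an activated donor, often UDP-glucose, to an acceptor. In plants, the soluble family 1 enzymes, called UGTs, glycosylate small molecules such as flavonoids, phenolics and hormones, which changes their solubility, storage and activity. Membrane-bound families in the endoplasmic reticulum and the Golgi apparatus build the glycans of proteins and the polysaccharides of the cell wall. Sterol glucosyltransferases put glucose on membrane sterols. A name taken from a best hit gives the family and not the acceptor used in latex.

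The working name of the group as glycosyltransferases outside the cell wall did not hold for all members. The best hits of 5 members name a galacturonosyltransferase or a galacturonosyltransferase-like protein, of a family whose founding Arabidopsis member makes pectin. Those of 2 others name a glycosyltransferase of secondary walls. With Unigene15195, of the same family 8 as the galacturonosyltransferases, and Unigene51142, named after a fucosyltransferase, 9 members were found by these words. This count leaves out relatives with other names, such as Unigene42454, Unigene146, Unigene22001 and the members of the exostosin family, described below. The members are therefore called glycosyltransferase unigenes by the rule alone.

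Of the 40 glycosyltransferase unigenes, 29 had the higher RPM (reads per 1000000 of the library) in PR107 and 11 in CATAS8-79. Their reads summed to 7035 in PR107 and 5062 in CATAS8-79, a log2 ratio of 0.49 (PR107 over CATAS8-79). Its 95% Clopper-Pearson interval of 0.43 to 0.54, like all intervals below, covers counting error only. This sum depended on few unigenes. Without Unigene19683, Unigene20819 and Unigene23708, which share a hit and are described below, the reads summed to 4305 in PR107 and 4167 in CATAS8-79, a log2 ratio of 0.06 (interval -0.00 to 0.12). Of the 37 members then left, 26 were still higher in PR107. Without Unigene13259 instead, which was higher in CATAS8-79, the log2 ratio of the sum was 0.77. Latex is a bulk sample, in which fewer cells of a type and less RNA per cell cannot be told apart. In the fit across all unigenes (Fisher's exact test at FDR ≤ 0.001 and |log2 ratio| ≥ 1), 39 of the 40 passed, 29 higher in PR107 and 10 in CATAS8-79. Of all unigenes tested, 12.8% passed, 7.14% higher in PR107 and 5.7% higher in CATAS8-79, but nothing follows from the members' higher share because it was fixed by the choice of members. Among all called unigenes, 55.6% were higher in PR107.

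The median log2 ratio of the members was 1.29, against 1.12 for all called unigenes, with unigenes at 0 reads set to their bound against 3 reads. Among the 35 members with more than 3 reads in each clone, the median absolute log2 ratio was 1.48, and it was 1.55 for all such called unigenes. On the scale of levels per length, the median member had 15.8 RPKM (RPM per kilobase) in PR107 and 11.6 RPKM in CATAS8-79, while the median called unigene had 18.0 RPKM in PR107 and 15.4 RPKM in CATAS8-79. Members were longer, at a median of 615 bp against 437 bp for called unigenes, and 16 of them were shorter than 500 bp. A member needed a best hit that names an enzyme, which was not asked of the called unigenes, so the 2 medians are not on equal terms.

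The direction of the members can be set beside their unigene number. Of the 10 members numbered 40000 or higher, 7 were higher in PR107, as were 22 of the 30 with lower numbers. Among all called unigenes, the shares were 82.9% at 40000 or higher and 45.5% below it. The number was chosen after values were seen, and its part in the directions was not tested.

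**Figure D1:**
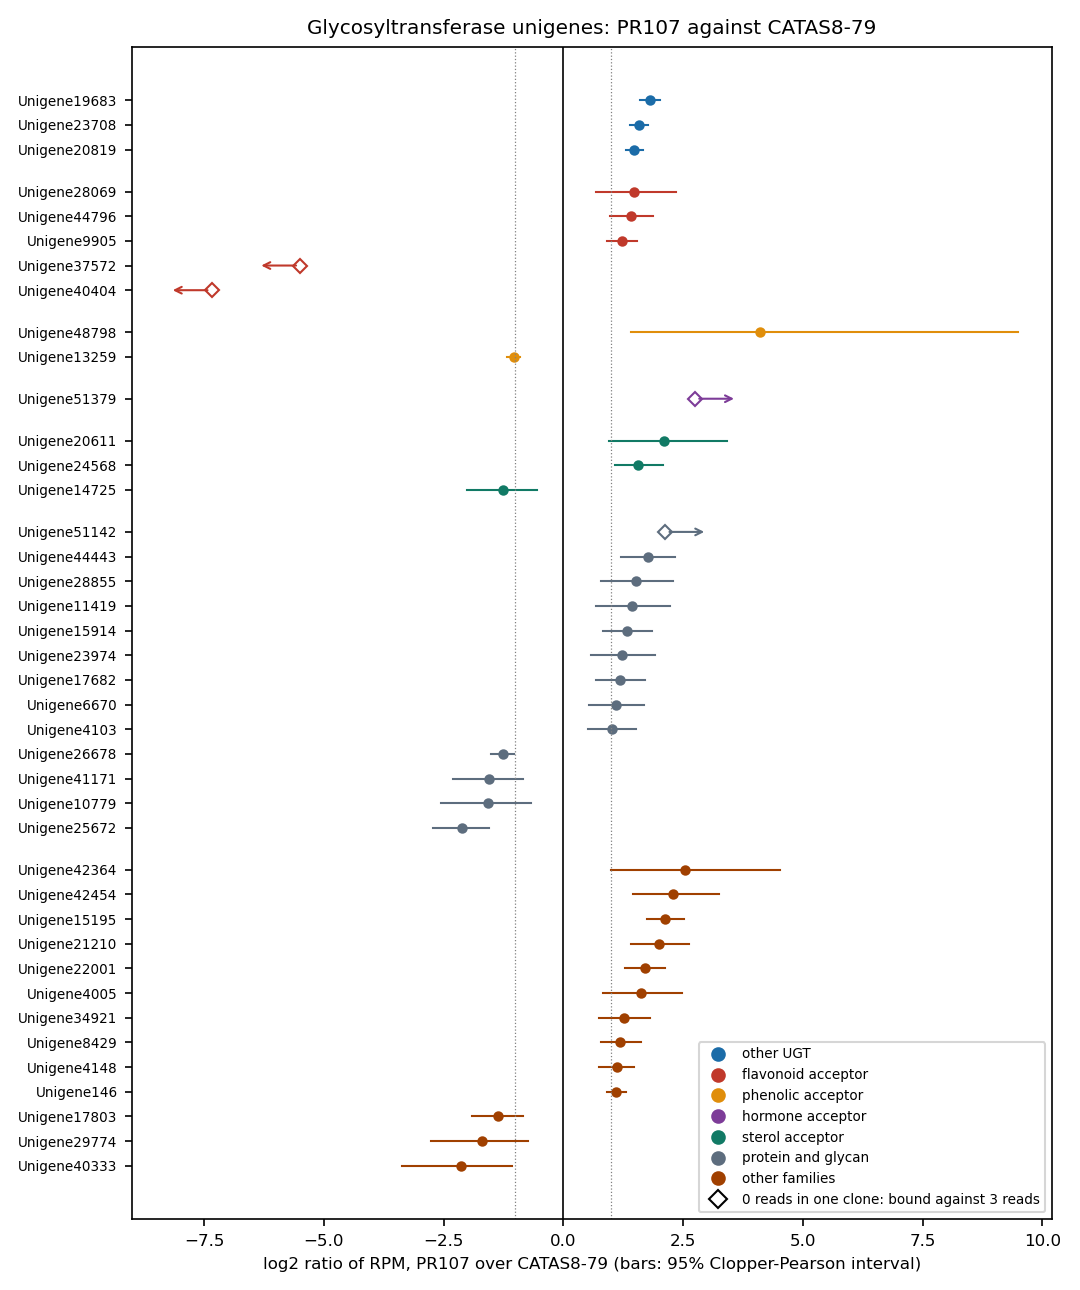
The log2 ratio of RPM (x axis, PR107 over CATAS8-79) of each of the 40 glycosyltransferase unigenes (rows), coloured by group, with 95% Clopper-Pearson intervals and dotted lines at -1 and 1. Open diamonds with arrows are the 4 unigenes with 0 reads in one clone, drawn at their bound against 3 reads. Of the 40, 29 lie right of 0, and Unigene40404 and Unigene37572 lie farthest to the left.

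The widest gaps between the clones were in 2 UGT unigenes whose best Swissprot hit is the same petunia protein, an enzyme that puts a sugar on flower pigments. Swissprot names it anthocyanidin 3-O-glucosyltransferase, under the gene name RT, and which sugar the rubber tree sequences would move was not tested. Unigene40404 (1116 bp) had 0 reads in PR107 and 491 in CATAS8-79, at least 162-fold lower in PR107 against a floor of 3 reads. Such a floor leaves out the counting error of the other library, and the bound of the interval that includes it was a log2 ratio of -7.04. Unigene37572 (253 bp) had 0 reads in PR107 and 136 in CATAS8-79, at least 45.0-fold lower in PR107 against the floor (interval bound -5.17 on the log2 scale). In CATAS8-79 their levels per length were alike, at 63.6 RPKM for Unigene40404 and 77.7 RPKM for Unigene37572. Both sequences were thus abundant in one latex pool and not detected at this depth in the other, where 0 reads allow up to 0.437 RPM. Their best Nr hits differ, a glucosyltransferase of morning glory for Unigene40404 and a predicted protein of beet for Unigene37572. Whether they are pieces of 1 transcript was not tested.

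The other 3 members with a flavonoid acceptor in their name were higher in PR107. Unigene9905, named after the rose anthocyanidin 5,3-O-glucosyltransferase, had 282 reads in PR107 and 122 in CATAS8-79, a log2 ratio of 1.22 (interval 0.91 to 1.54). Unigene44796, the longest of them at 1625 bp, is named after the gentian anthocyanin 3'-O-beta-glucosyltransferase and had 153 reads in PR107 and 58 in CATAS8-79, a log2 ratio of 1.41 (interval 0.97 to 1.87). Unigene28069 was the only member whose best Swissprot hit came from the same plant family as the rubber tree, an anthocyanidin 3-O-glucosyltransferase of cassava. It had 50 reads in PR107 and 18 in CATAS8-79, a log2 ratio of 1.48 (interval 0.68 to 2.35). These 3 summed to 485 reads in PR107 and 198 in CATAS8-79, a log2 ratio of 1.30. With Unigene40404 and Unigene37572 the flavonoid group summed to 485 reads in PR107 and 825 in CATAS8-79, a log2 ratio of -0.76 (interval -0.92 to -0.59), so the direction of the sum was set by the petunia-like pair. Unigene39898 is no member because its Swissprot hit names a cytokinin, but its best Nr hit names a flavonoid enzyme of snapdragon. It was lower in PR107, at 5 reads, against 26 in CATAS8-79 (log2 ratio -2.37).

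The highest levels of all members in PR107 were in 3 unigenes with one and the same best Nr hit, a UDP-glucose:glucosyltransferase of Lycium barbarum (wolfberry). Unigene19683 (293 bp) had 455 RPKM in PR107 and 130 RPKM in CATAS8-79, Unigene20819 (410 bp) 315 RPKM in PR107 and 112 RPKM in CATAS8-79, and Unigene23708 (726 bp) 186 RPKM in PR107 and 62.3 RPKM in CATAS8-79. Despite the different lengths, their reads were close to each other within a library. Unigene19683 had 916 reads in PR107 and 263 in CATAS8-79, a log2 ratio of 1.81 (interval 1.61 to 2.01). Unigene20819 had 886 reads in PR107 and 319 in CATAS8-79, a log2 ratio of 1.48 (interval 1.30 to 1.67), and Unigene23708 had 928 reads in PR107 and 313 in CATAS8-79, a log2 ratio of 1.58 (interval 1.39 to 1.77). Together they had 2730 reads in PR107 and 895 in CATAS8-79, a log2 ratio of 1.62 (interval 1.51 to 1.73). They made up 38.8% of all member reads in PR107 and 17.7% in CATAS8-79. In Swissprot, Unigene20819 and Unigene23708 share the hit N-hydroxythioamide S-beta-glucosyltransferase (UGT74B1), an Arabidopsis enzyme of glucosinolate synthesis, and Unigene19683 hits an uncharacterized UDP-glucosyltransferase of Arabidopsis.

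The member with the most reads over both libraries was Unigene13259 (1479 bp), whose best Swissprot hit is hydroquinone glucosyltransferase, the arbutin synthase of Rauvolfia. It had 611 reads in PR107 and 1263 in CATAS8-79, a log2 ratio of -1.04 (interval -1.18 to -0.90). Unigene48798 (244 bp), with the same Nr and Swissprot hits, went the other way on few reads: 17 in PR107 and 1 in CATAS8-79, a log2 ratio of 4.10 (interval 1.42 to 9.48). Because of Unigene13259, the phenolic group as a whole was lower in PR107, with 628 reads, against 1264 in CATAS8-79.

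A single member was named after a hormone acceptor, but hits that name a cytokinin were left out by the rule. Of those, Unigene39898 had 5 reads in PR107 and 26 in CATAS8-79, and Unigene42056 had 25 reads in PR107 and 2 in CATAS8-79. Unigene51379, whose Swissprot hit is the maize indole-3-acetate beta-glucosyltransferase, which conjugates auxin with glucose, had 20 reads in PR107 and 0 in CATAS8-79, at least 6.72-fold higher in PR107 against the floor (interval bound 2.31 on the log2 scale). Its best Nr hit is UGT74F2 of Arabidopsis lyrata, the namesake of an Arabidopsis enzyme that glucosylates salicylic acid.

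**Figure D2:**
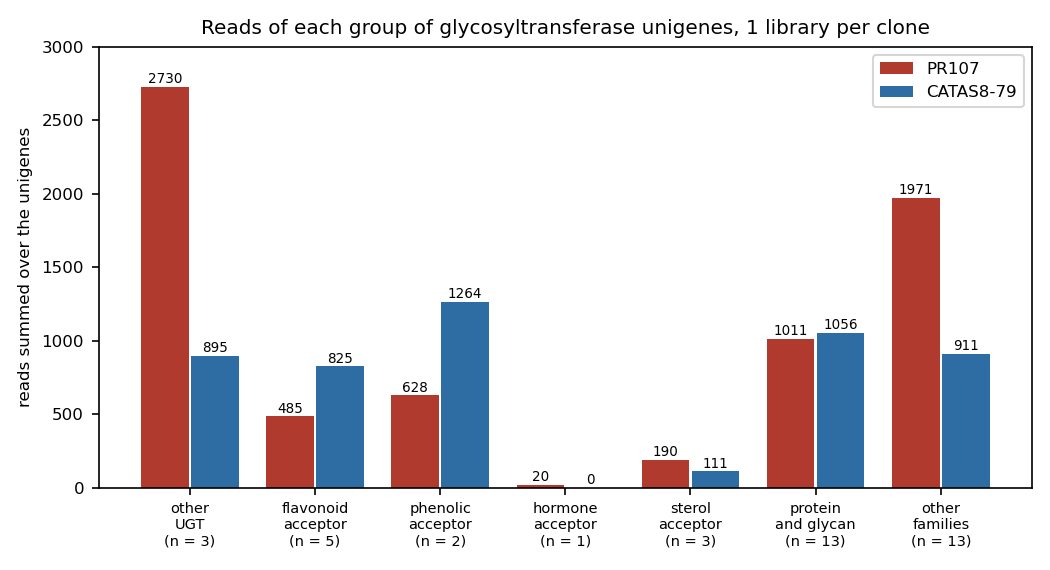
Reads (y axis) summed over the unigenes of each group of glycosyltransferases (x axis, n unigenes each) in the PR107 library (red) and the CATAS8-79 library (blue). PR107 had 2730 reads against 895 in CATAS8-79 for the other UGT unigenes, while CATAS8-79 had more in the flavonoid group (485 in PR107 and 825 in CATAS8-79) and the phenolic group (628 in PR107 and 1264 in CATAS8-79).

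Sterol glucosyltransferases, which make the steryl glucosides of plant membranes, gave 3 members that went both ways. Unigene24568 had 132 reads in PR107 and 45 in CATAS8-79, a log2 ratio of 1.56 (interval 1.07 to 2.09). Unigene20611 had 34 reads in PR107 and 8 in CATAS8-79, a log2 ratio of 2.10 (interval 0.96 to 3.42). Unigene14725, with the same best Nr hit as Unigene20611, a ginseng sterol 3-O-glucosyltransferase, was lower in PR107, at 24 reads, against 58 in CATAS8-79, a log2 ratio of -1.26 (interval -2.01 to -0.55). This last member and Unigene20611 summed to 58 reads in PR107 and 66 in CATAS8-79, and the interval of their joint log2 ratio, -0.71 to 0.36, includes 0.

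The protein and glycan group had 13 members, 9 higher in PR107 and 4 in CATAS8-79, and its reads summed to nearly the same number, 1011 in PR107 and 1056 in CATAS8-79 (log2 ratio -0.05, interval -0.18 to 0.07). Within it, 4 members belong to oligosaccharyltransferase, the complex of the endoplasmic reticulum that transfers a preassembled glycan from dolichol to asparagine residues of new proteins. Unigene41171 (211 bp), named after the catalytic subunit STT3, had 23 reads in PR107 and 68 in CATAS8-79, a log2 ratio of -1.55 (interval -2.30 to -0.85). The other 3 members of the complex were higher in PR107. Unigene17682 and Unigene4103 are both named after DGL1, the Arabidopsis form of an accessory subunit. Unigene17682 had 113 reads in PR107 and 50 in CATAS8-79, and Unigene4103 had 104 reads in PR107 and 52 in CATAS8-79, log2 ratios of 1.19 and 1.01. Unigene15914, named after ribophorin I, had 112 reads in PR107 and 45 in CATAS8-79, a log2 ratio of 1.33 (interval 0.82 to 1.86). Among these 4 unigenes, those named after accessory subunits were thus higher in PR107, and the short one named after the catalytic subunit was lower. Unigenes of the complex that did not differ have no name, so this does not describe the complex as a whole. Whether Unigene17682 and Unigene4103 are pieces of the same transcript was not tested.

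The step before this transfer was represented by Unigene10779, named after ALG6 and ALG8, which add glucose to the dolichol-linked glycan. It had 14 reads in PR107 and 42 in CATAS8-79, a log2 ratio of -1.57 (interval -2.56 to -0.67). It was the only member that missed a threshold of the fit, at an adjusted p (Fisher's exact test) of 0.00102.

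Among the Golgi families, 3 members had beta-1,3-galactosyltransferase in their name. Unigene25672 (B3GALT2 of Arabidopsis) had 32 reads in PR107 and 140 in CATAS8-79, a log2 ratio of -2.12 (interval -2.72 to -1.56). Unigene44443 (B3GALT3) had 121 reads in PR107 and 36 in CATAS8-79, a log2 ratio of 1.76 (interval 1.21 to 2.34). These 2 relatives went in opposite directions. That neither interval reached 0 follows from the choice of members. Unigene11419, named after sqv-2, a galactosyltransferase of glycosaminoglycan synthesis in Caenorhabditis elegans, had 56 reads in PR107 and 21 in CATAS8-79.

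The exostosin family, named after the animal enzymes of heparan sulfate synthesis, also gave 3 members. Unigene5825 and Unigene18358 have the same family name in Nr but were left out because Swissprot names them xyloglucan galactosyltransferases. Unigene5825 had 343 reads in PR107 and 777 in CATAS8-79, and Unigene18358 had 76 and 33. Whether the exostosin members act on the cell wall was not tested. Unigene26678, at 2284 bp the longest member, had 211 reads in PR107 and 512 in CATAS8-79, a log2 ratio of -1.27 (interval -1.51 to -1.03). Unigene28855 has the same Swissprot hit and was higher in PR107, with 62 reads, against 22 in CATAS8-79. Unigene6670 had 85 reads in PR107 and 40 in CATAS8-79, a log2 ratio of 1.10. The remaining members of the group were Unigene23974, of family 28 and named in Swissprot after a bacterial enzyme of peptidoglycan synthesis, with 65 reads in PR107 and 28 in CATAS8-79, and Unigene51142. This one is named after a fucosyltransferase of family 37, which acts on cell wall glycans in pea and Arabidopsis, and had 13 reads in PR107 and 0 in CATAS8-79, at least 4.37-fold higher in PR107 against the floor (interval bound 1.62 on the log2 scale).

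**Figure D3:**
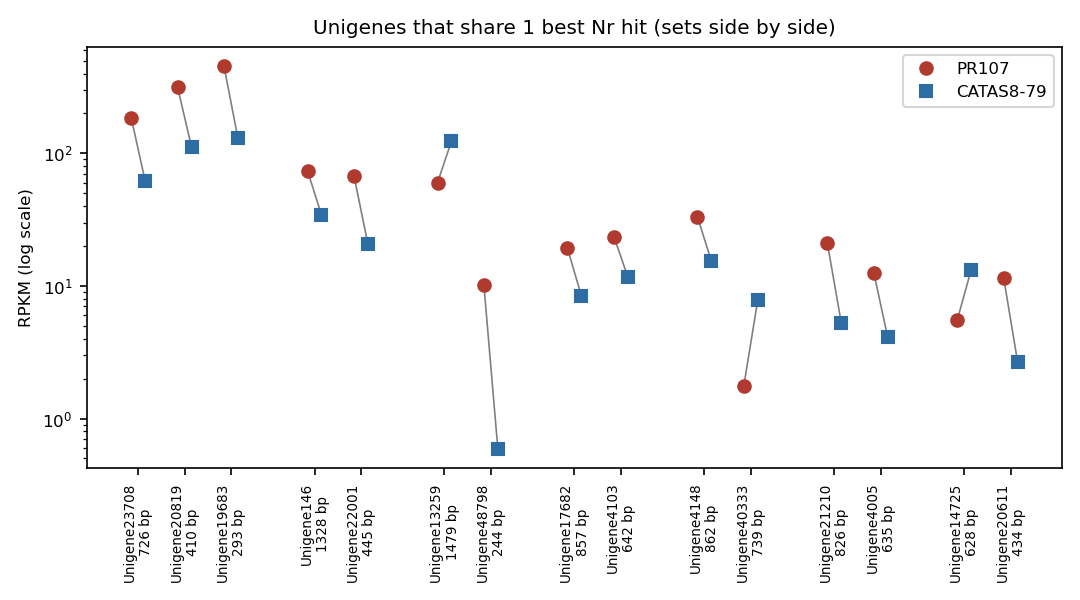
RPKM (y axis, log scale) in PR107 (red circles) and CATAS8-79 (blue squares) of the 15 unigenes that fall into 7 sets with the same best Nr hit, with unigene length below each name. In 4 sets all unigenes lie higher in PR107, and in the sets of Unigene13259, Unigene4148 and Unigene14725 the unigenes go in opposite directions.

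The other families held 13 members, 10 higher in PR107 and 3 in CATAS8-79, with 1971 reads in PR107 and 911 in CATAS8-79, a log2 ratio of 1.12 (interval 1.01 to 1.24). All 3 that were lower in PR107 were named after galacturonosyltransferases or their relatives. Unigene40333 (GATL7) had 9 reads in PR107 and 40 in CATAS8-79, a log2 ratio of -2.14 (interval -3.37 to -1.08). Unigene29774 (GAUT11) had 12 reads in PR107 and 39 in CATAS8-79, a log2 ratio of -1.69. Unigene17803, named after GATL1, which takes part in secondary wall formation in Arabidopsis, had 42 reads in PR107 and 109 in CATAS8-79, a log2 ratio of -1.36.

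Not all members of that family were lower in PR107. Unigene4148, with the same best hits as Unigene40333, had 197 reads in PR107 and 92 in CATAS8-79, a log2 ratio of 1.11 (interval 0.75 to 1.48). Unigene8429 (GAUT10, 205 bp) had 161 reads in PR107 and 71 in CATAS8-79, a log2 ratio of 1.19. Unigene15195, of the same family 8 but with no Swissprot hit, had 298 reads in PR107 and 69 in CATAS8-79, a log2 ratio of 2.12 (interval 1.74 to 2.52). The 5 unigenes named after a galacturonosyltransferase or a galacturonosyltransferase-like protein together had 421 reads in PR107 and 351 in CATAS8-79. Their log2 ratio was 0.27 (interval 0.07 to 0.48).

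All 3 unigenes of family 14 were higher in PR107. This family includes the animal xylosyltransferases that start glycosaminoglycan chains and, in Arabidopsis, glucuronosyltransferases that act on arabinogalactan proteins. Unigene42454 had 68 reads in PR107 and 14 in CATAS8-79, a log2 ratio of 2.29 (interval 1.45 to 3.24). Unigene21210 had 119 reads in PR107 and 30 in CATAS8-79, a log2 ratio of 2.0 (interval 1.41 to 2.63). Unigene4005 shares the Nr hit of Unigene21210, a secondary cell wall glycosyltransferase of poplar, and had 55 reads in PR107 and 18 in CATAS8-79. The 3 summed to 242 reads in PR107 and 62 in CATAS8-79, a log2 ratio of 1.98 (interval 1.57 to 2.40).

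Unigene146 and Unigene22001 share both best hits, the GMA12/MNN10 family and Glycosyltransferase 6 of Arabidopsis. GMA12 is a galactosyltransferase of fission yeast, and plant relatives in this family put xylose on xyloglucan. Unigene146 (1328 bp) had 673 reads in PR107 and 316 in CATAS8-79, and Unigene22001 (445 bp) had 207 reads in PR107 and 64 in CATAS8-79. Their log2 ratios were 1.10 (interval 0.91 to 1.30) and 1.70 (interval 1.29 to 2.13), and their levels in PR107 were close, at 73.8 RPKM and 67.7 RPKM. The last 2 members were Unigene34921, named after AER61 of Xenopus, with 107 reads in PR107 and 45 in CATAS8-79, and Unigene42364, named only as a glycosyltransferase of barrel medic, with 23 reads in PR107 and 4 in CATAS8-79. The 6 members with no Swissprot hit at all, Unigene42364 among them, were all higher in PR107, as were 29 of all 40 members. No such share was taken over all called unigenes without a Swissprot hit, so nothing follows from this count about the members.

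**Figure D4:**
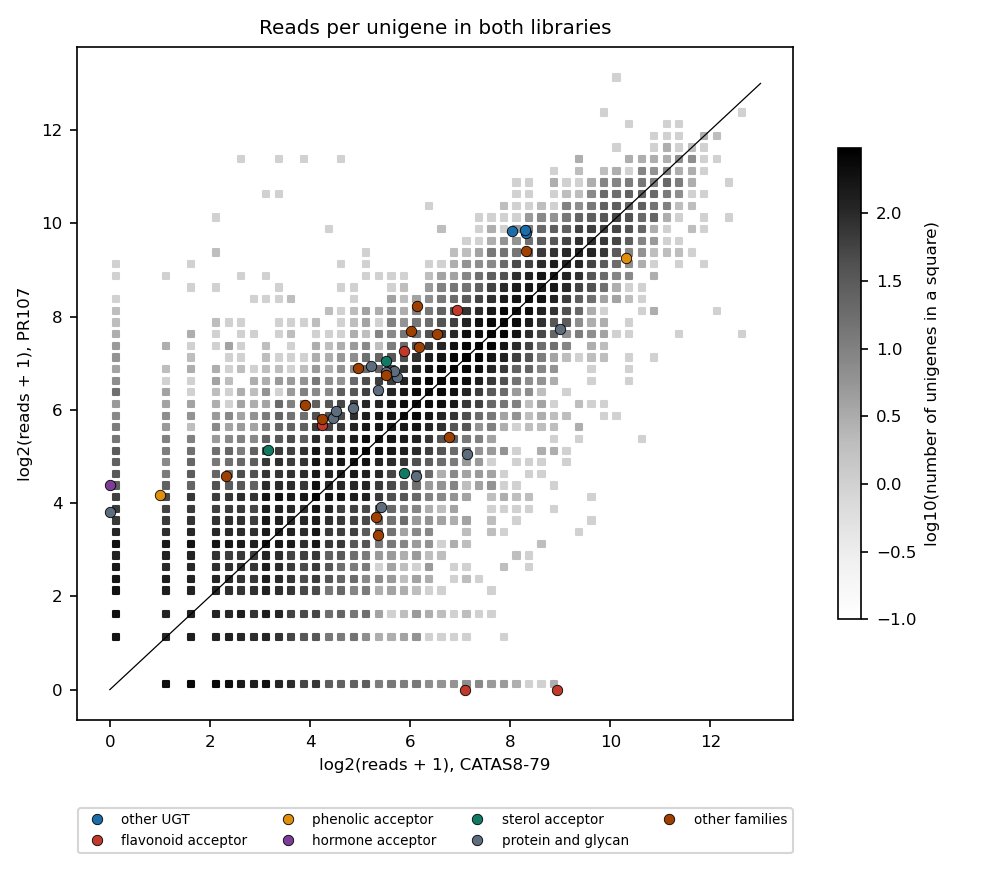
Reads per unigene in PR107 (y axis) and CATAS8-79 (x axis), both as log2(reads + 1), for the 40 glycosyltransferase unigenes (coloured points) over all 51192 unigenes (squares, darker where more unigenes lie), with the line of equal reads. The members lie off the line because they were drawn from called unigenes, and Unigene40404 and Unigene37572 lie on the axis of 0 reads in PR107.

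Shared best hits linked 15 members into 7 sets in Nr. When each set was counted once, by its unigene with the most reads, 32 members stayed, of which 22 passed the fit higher in PR107 and 9 higher in CATAS8-79. All unigenes of 4 sets had the same direction, and 3 sets were split. Reads of close relatives or of pieces of 1 transcript may be shared between such unigenes, so the split of reads within a set is uncertain.

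The members nearest to the thresholds were Unigene4103, with a log2 ratio of 1.011, and Unigene13259, with -1.037. Just outside the fold threshold lay Unigene23835 and Unigene2010, at 0.9998 and -0.9998, whose names are not given in the files. On the side of the FDR, Unigene14725 had an adjusted p of 9.73e-04 and Unigene29774 one of 8.74e-04 (Fisher's exact test), and just outside it were Unigene40979 and Unigene41231, with 12 reads in PR107, 0 in CATAS8-79 and an adjusted p of 0.00101. Members with few reads, such as Unigene51142, sit at a level where 1 read decides the call.

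Fisher's exact test allows no spread between libraries of the same clone. EdgeR's exact test was therefore run with an assumed biological coefficient of variation (BCV). At a BCV of 0.2, 4 of the 40 members passed, Unigene40404, Unigene37572, Unigene25672 and Unigene15195, and 2.96% of all unigenes. At an assumed BCV of 0.4 only Unigene40404 and Unigene37572 of the members passed, and 0.371% of all unigenes. Nothing follows from the members' share here either, because they were chosen by a difference in these same reads.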

How the data were processed

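Latex RNA of the clones PR107 and CATAS8-79 was sequenced as 1 library each. Unigenes were built de novo by the authors with SOAPdenovo, and they deposited a raw read count per unigene and its RPKM. The deposited RPKM equals the count scaled by length and library total to within 5.00e-05. The authors' log2 ratio, p-value and FDR columns were not used, except that membership of their table of called unigenes defines which unigenes have names. The aligner version is not given in the sources used here.

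Reads of each unigene and the remaining reads of both libraries entered Fisher's exact test (two-sided). P-values were adjusted by Benjamini-Hochberg over 51192 unigenes, and a unigene was called at FDR ≤ 0.001 and |log2 ratio| ≥ 1, the study's thresholds. EdgeR's quasi-likelihood test needs replicates and could not be fitted, and the test used compares libraries, not clones. With 1 library per clone, intervals (95% Clopper-Pearson) and the floor of 3 reads (0.437 RPM in PR107, 0.434 in CATAS8-79) cover counting error only. Reads carry no molecular identifiers, so copies of 1 molecule made by amplification may count as separate reads, which the intervals do not cover. The test was tested on simulated data.

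Members were grouped by words in their best hits, the first matching list winning, and the lists for storage sugars and for terpenoid and cyanogenic acceptors matched 0 members. Named were all members of groups of 6 or fewer, and in larger groups those with most reads, the largest folds, 0 reads in one clone, a shared best hit or a value near a threshold. The remaining members were named as well, after their values were seen. Members, groups and lists were chosen with earlier results of these data known. Alternatives were TMM and median-ratio scaling, the Audic-Claverie test, an assumed spread, filters on reads, another fold and other member sets. None of 50196 RefSeq genes of the species matched a unigene identifier, so no sequence or position is given. Python 3.11.15, scipy 1.17.1, R 4.3.3, edgeR 4.0.16 and DESeq2 1.42.0 (size factors) were used.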

Additional observations from a re-analysis of the deposited data

How the results depend on the processing

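No paired analysis was possible because each clone has 1 library, and for the same reason no replicate could be left out. No member changed direction under any scaling. TMM scaling shifted all log2 ratios by -0.046 and median-ratio scaling by -0.029, and 36 members then passed under TMM and 37 under median ratio. TMM lost Unigene23974, Unigene4103, Unigene42364 and Unigene51142 and gained Unigene10779. The Audic-Claverie test passed 38 members, and 40 or 34 passed with at least 10 or 50 reads in both libraries together.

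With an assumed BCV of 0.2, 4 members passed, 1 higher in PR107 and 3 in CATAS8-79, and 1515 unigenes in all (796 higher in PR107 and 719 in CATAS8-79). At a BCV of 0.4 the counts were 2 members, 0 higher in PR107 and 2 in CATAS8-79, and 190 unigenes (101 higher in PR107 and 89 in CATAS8-79). A fold of 4 left 11 members (7 higher in PR107 and 4 in CATAS8-79) and 2775 unigenes (1570 higher in PR107 and 1205 in CATAS8-79). These settings lower the counts by construction. When only the Nr text was searched, 27 members were found and 19 passed higher in PR107. When only the Swissprot text was searched, 25 were found and 24 passed, 17 of them higher in PR107. The log2 ratio of the summed reads was 0.88 with RPKM summed, which gives short unigenes more weight, 0.77 without Unigene13259, and, in settings chosen after seeing the data, 0.68 without Unigene40404 and Unigene37572 and 0.06 without Unigene19683, Unigene20819 and Unigene23708.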

Other observations

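Named unigenes of neighbouring steps were counted from word lists, again only among unigenes the authors called, so the counts are descriptions. Enzymes and transporters of sugar nucleotides, the donors of glycosyltransferases, gave 10 unigenes, 5 higher in PR107 and 5 in CATAS8-79. Unigene51756, a UDP-glucuronic acid decarboxylase, which makes UDP-xylose, had 71 reads in PR107 and 20 in CATAS8-79 (log2 ratio 1.84), while Unigene15187, a rhamnose synthesis enzyme, had 80 reads in PR107 and 192 in CATAS8-79 (log2 ratio -1.25). Of 11 unigenes found by words of flavonoid synthesis, 8 were higher in PR107 and 3 in CATAS8-79, with 1905 reads in PR107 and 914 in CATAS8-79. Unigene21888 and Unigene31099, named after leucoanthocyanidin dioxygenase, which makes the anthocyanidins that UGTs glycosylate, had 459 and 37 reads in PR107 and 137 and 10 in CATAS8-79. Several of the list, such as Unigene13187, have a cinnamoyl-CoA reductase as best Nr hit and a dihydroflavonol reductase in Swissprot.

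Glycosidases, which remove sugars, gave 29 unigenes, 17 higher in PR107 and 12 in CATAS8-79, and their reads were near equal, 2904 in PR107 and 2849 in CATAS8-79. The list holds glucan endo-1,3-beta-glucosidases (glucanases) and endo-mannanases besides enzymes that trim glycans. The 2 alpha-L-fucosidase unigenes, Unigene33094 and Unigene32352, were lower in PR107, at 6 and 5 reads, against 99 and 45 in CATAS8-79. Of the 3 alpha-galactosidases, Unigene20268 and Unigene4633 had 157 and 99 reads in PR107 and 11 and 13 in CATAS8-79, and Unigene7610 had 101 reads in PR107 and 484 in CATAS8-79. Of 3 other sugar transferases, 2 were higher in PR107 and 1 in CATAS8-79, with 396 reads in PR107 and 216 in CATAS8-79. Among the 8 unigenes left out of the members, Unigene27328 and Unigene40419, named raffinose synthase, had 710 and 84 reads in PR107 and 262 and 30 in CATAS8-79.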
